A study of Rattus norvegicus with 12 samples.

Results

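Hepatic stellate cells were examined here through 9 genes that mark them in rat liver: Ecm1, Lrat, Colec10, Colec11, Pth1r, Hgf, Angptl6, Steap4 and Sod3. The 9 genes are a named list, chosen by symbol from the 32883 genes counted. The rule sets no threshold on a measured level, but the list was drawn up with earlier results of these data known. Each gene was read in stellate, endothelial and Kupffer cells and in hepatocytes that had been gated with other genes, in whole cells and in nuclei, in both rat strains and on tissue sections.

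Stellate cells are the pericytes of the liver sinusoid. They lie in the space of Disse between the endothelium and the hepatocytes, and in healthy liver they are quiescent and store vitamin A as retinyl esters in lipid droplets. They are also known as a main source of hepatocyte growth factor in liver, and after injury they can turn into contractile, collagen-secreting myofibroblasts.

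The study profiled livers of healthy male rats. Total liver homogenate (TLH) was digested with collagenase in 2 steps and whole cells were captured from 2 Dark Agouti (DA) and 2 Lewis (LEW) rats. An immune-enriched preparation with further washes and red blood cell depletion gave 1 library of each strain, single nuclei were taken from 2 further rats of each strain, and 2 sections of Wistar liver, A and B, were placed on spatial capture slides. The design text gives an age of 8 to 10 weeks, whereas the TLH data names give 10 weeks for DA and 13 weeks for LEW and the immune-enriched names give 9 weeks. The study's methods describe the strains as age matched and give a later age than any of these, so whether the TLH strains differed in age is not settled by the sources. Each library was 1 rat or 1 section, with no treatment and no genetic change in any group.

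The libraries held 61441846 to 92484173 unique molecular identifiers (UMIs, each 1 captured RNA molecule) in TLH, 48255870 and 60005133 in the immune-enriched preparation, 8039397 to 15186970 in nuclei, and 34449562 and 34827603 on the sections. After filters on UMIs and mitochondrial share, 3844 to 7112 cells per TLH library, 1163 and 2677 immune-enriched cells and 2205 to 5262 nuclei per library were kept. A cell was called stellate-gated when it held UMIs of at least 4 genes of a stellate list (such as Dcn, Col3a1, Bgn, Reln and Pdgfrb, and none of the 9 genes) and at least 2 times as many as of any other non-parenchymal list. Endothelial-gated and Kupffer-gated cells were called in the same way. Hepatocyte-gated cells held at most 1 gene of each such list and at least 3% of their UMIs in a list of 14 hepatocyte genes. This gave 203 and 268 stellate-gated cells in DA 1 and DA 2 TLH, 54 and 44 in LEW 1 and LEW 2 TLH, 19 (DA) and 8 (LEW) immune-enriched cells, and 50 to 75 nuclei per rat. Stellate-gated TLH cells had median UMIs of 1701 to 2423 and the nuclei 1219 to 1443.5. The 14 genes of the hepatocyte list, which stand for RNA from other cells, made up a median of 7.76% to 9.62% of the UMIs of stellate-gated TLH cells, 3.8% to 5.6% in nuclei, and 0.11% (DA) and 1.71% (LEW) in the immune-enriched cells. The part of such RNA in the low levels outside the stellate gate was not tested. In hepatocyte-gated cells the same list made up a median of 9.58% to 11.5% of the UMIs in TLH and 6.1% to 17.6% in nuclei. The TLH share was thus close to that of stellate-gated TLH cells, and the hepatocyte gate there rests largely on the absence of other markers. No doublet caller was run, and between 8 and 24 barcodes were shared by any pair of nuclei libraries.

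Promoter sequence was available from RefSeq (GRCr8) for 7 of the 9 genes, and the 4 promoters below are shown because they hold one of the searched motifs. Each is the 250 bases before the annotated start, on the minus strand: Ecm1 at chr2:185981607-185981856, Colec11 at chr6:50984846-50985095, Steap4 at chr4:27054770-27055019 and Hgf at chr4:19700468-19700717. Capitals mark CAGCTG. This is an E-box of the kind that basic helix-loop-helix factors such as Tcf21 and Hand2 can bind. They also mark AGATAA, which factors of the Gata4 family can bind, and the core promoter element TATAAA.
Ecm1: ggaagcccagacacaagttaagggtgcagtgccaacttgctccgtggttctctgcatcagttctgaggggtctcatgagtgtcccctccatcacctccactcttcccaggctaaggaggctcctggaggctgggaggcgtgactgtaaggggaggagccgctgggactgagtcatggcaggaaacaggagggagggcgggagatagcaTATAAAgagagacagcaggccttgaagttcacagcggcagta
Colec11: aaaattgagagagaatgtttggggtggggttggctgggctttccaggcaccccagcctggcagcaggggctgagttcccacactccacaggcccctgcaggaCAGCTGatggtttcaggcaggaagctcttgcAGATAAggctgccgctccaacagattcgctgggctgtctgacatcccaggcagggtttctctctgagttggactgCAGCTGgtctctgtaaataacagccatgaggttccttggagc
Steap4: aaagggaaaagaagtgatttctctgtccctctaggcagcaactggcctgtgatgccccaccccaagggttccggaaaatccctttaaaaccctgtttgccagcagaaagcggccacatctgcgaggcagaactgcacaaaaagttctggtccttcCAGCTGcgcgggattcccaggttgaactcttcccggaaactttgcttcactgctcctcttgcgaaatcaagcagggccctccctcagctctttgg
Hgf: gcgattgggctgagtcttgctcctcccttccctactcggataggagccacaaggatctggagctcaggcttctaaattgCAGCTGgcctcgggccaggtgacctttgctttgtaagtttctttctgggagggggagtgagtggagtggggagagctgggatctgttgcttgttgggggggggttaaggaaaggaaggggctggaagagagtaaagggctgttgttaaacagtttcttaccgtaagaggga
CAGCTG was present in 3 of the 7 promoters, against 11.9% of 27457 rat promoters of the same length. Colec11 held it at 148 to 143 and at 42 to 37 bases before the start, Steap4 at 95 to 90 and Hgf at 171 to 166. AGATAA stood in 1 of 7 (Colec11), against 10.0% of all promoters. TATAAA stood in 1 of 7 (Ecm1, 42 to 37 bases before the start), against 13.1%. TAATTA, a homeodomain site of the kind that Lhx2 can bind, stood in 0 of 7 and in 4.94% of all promoters. Both strands were searched, the motifs did not overlap, and a match is only a match of letters.

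All 9 genes were highest in stellate-gated cells in TLH, in the immune-enriched preparation and in nuclei. Against endothelial-gated TLH cells, 9 of 9 genes were called higher, where 4.41% of the 8033 genes tested were called higher. The count was 9 of 9 against Kupffer-gated cells (background 8.61%) and 9 of 9 against hepatocyte-gated cells (background 11.5%). In nuclei 9 of 9 were called against endothelial-gated (background 4.96% of 6154 genes), Kupffer-gated (7.39%) and hepatocyte-gated nuclei (14.2%). The median log2 fold change of the 9 genes was 4.06, 4.36 and 5.17 in TLH against endothelial-gated, Kupffer-gated and hepatocyte-gated cells, and 4.89, 5.08 and 6.46 in nuclei, while the median over all genes tested lay between -0.04 and 0.01. These calls came from edgeR's quasi-likelihood test on UMI sums per rat and class, with the rat as a block and Benjamini-Hochberg adjustment at 0.05. The list was known to mark stellate cells, so these counts describe how sharply the genes separate the classes.

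**Figure D1:**
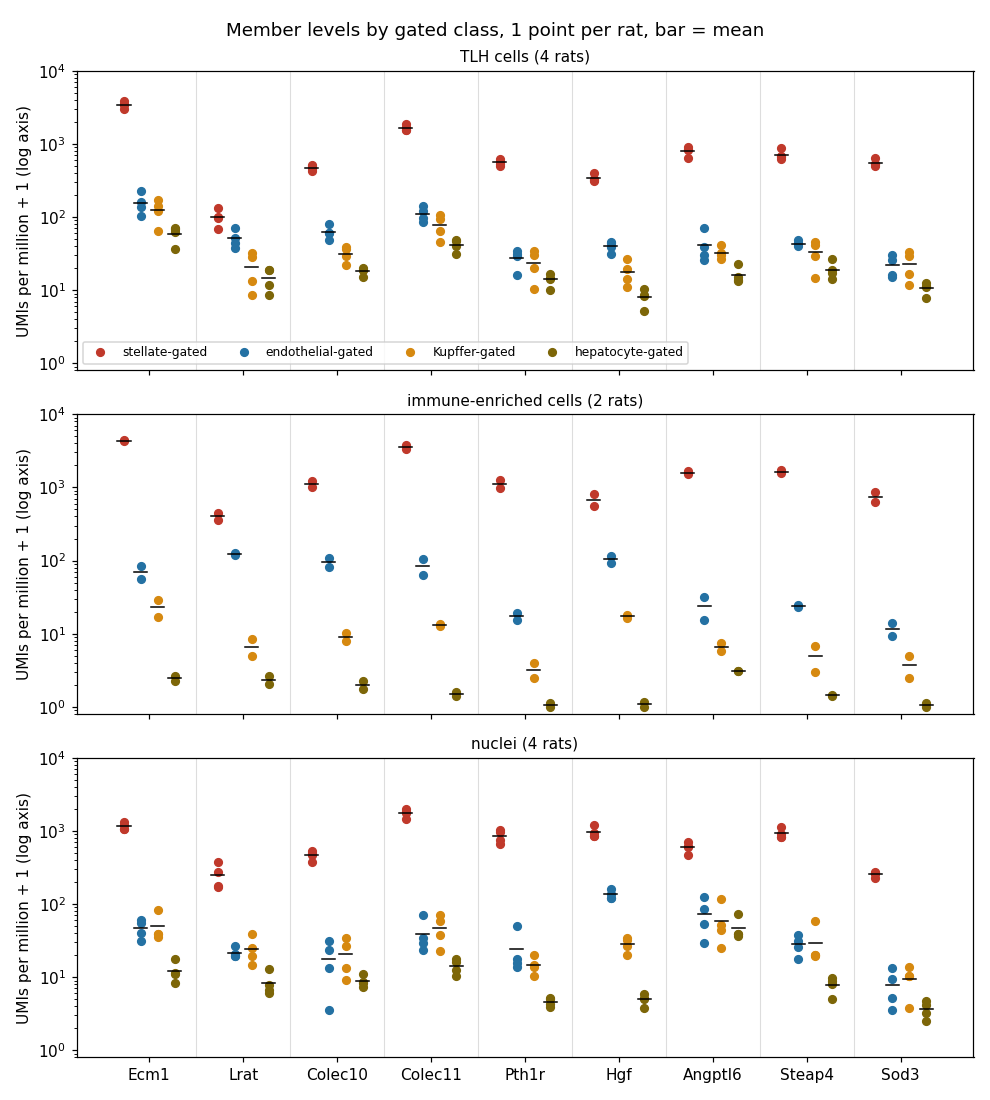
Level of each of the 9 genes (CPM plus 1, log axis) in stellate-gated, endothelial-gated, Kupffer-gated and hepatocyte-gated sums, in TLH, immune-enriched and nuclei libraries; each point is 1 rat and each bar the mean. The stellate-gated points lie above all others for every gene except Lrat in TLH, where the stellate-gated and endothelial-gated ranges overlap (67.3 to 130 against 37.0 to 70.6 CPM).

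Ecm1 encodes extracellular matrix protein 1, a secreted glycoprotein known to hold TGF-beta in its latent form. In stellate-gated TLH cells it was at 3004 (DA 1), 3807 (DA 2), 3450 (LEW 1) and 3501 (LEW 2) CPM. CPM are the UMIs of the gene scaled by all UMIs of that class in that rat. The 4 rats lay close together, and the endothelial-gated cells of the same rats ranged from 102.7 to 228, Kupffer-gated cells from 62.9 to 168 and hepatocyte-gated cells from 35.1 to 69.7. Ecm1 was 23.2-fold higher than in endothelial-gated TLH cells (log2 4.53, SE 0.23) and 50.4-fold higher than in hepatocyte-gated cells (log2 5.66, SE 0.23). In nuclei it was at 1058, 1340, 1053 and 1212 CPM in the same order, 87.9-fold above hepatocyte-gated nuclei. The immune-enriched stellate-gated cells held 4446 (95% Poisson interval 4056 to 4862) in DA and 4253 (3623 to 4961) in LEW. Without the cells that held 2 or more fibroblast, smooth muscle or mesothelial markers, described further on, these were 8661 and 9467. Ecm1 was seen in 93.2% to 95.1% of stellate-gated TLH cells and in 7.9% to 14.9% of hepatocyte-gated cells, with a median of 1771 to 2497 UMIs in the hepatocyte-gated cells.

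Among 10 genes of latent TGF-beta handling, 6 were tested in TLH and all 6 were higher in stellate-gated than in hepatocyte-gated cells, where 11.5% of all genes tested were higher. Ltbp3 (log2 4.92), Ltbp1 (4.76), Tgfb2 (3.93) and Tgfb3 (3.81) had the largest differences, and the Ltbp genes encode the proteins that tether the latent complex to matrix. In nuclei 3 of 4 tested were higher than in hepatocyte-gated nuclei (14.2% of all genes), led by Ltbp1 (7.48), Tgfb3 (6.64) and Tgfb1 (4.35). Against Kupffer-gated TLH cells, Tgfb1 itself was lower in stellate-gated cells (log2 -1.77), and 3 of the 6 genes were higher (8.61% of all genes).

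Lrat encodes lecithin retinol acyltransferase, the enzyme that esterifies retinol for storage. Stellate-gated TLH cells held 95.3 (DA 1), 130 (DA 2), 67.3 (LEW 1) and 100.3 (LEW 2) CPM. Endothelial-gated cells of the same rats held 50.6, 70.6, 37.0 and 43.6, so that each rat was higher in its stellate-gated cells while the ranges of the classes overlapped. The difference was 1.86-fold (log2 0.90, SE 0.19, adjusted p = 0.00043 by edgeR's quasi-likelihood test), the smallest of the 9 genes. This call rested on DA 2 and on the pairing: without DA 2 the log2 fold change was 0.87 with adjusted p = 0.055, and without the rat as replicate block it was 1.02 with adjusted p = 0.19, both by edgeR. In nuclei Lrat stood at 171, 377, 175 and 269 CPM in stellate-gated and at 18.2 to 25.8 in endothelial-gated sums, a 12.6-fold difference (log2 3.66, SE 0.30). The immune-enriched stellate-gated cells held 353 (DA, 38 UMIs, interval 249.6 to 484) and 446 (LEW, 17 UMIs, interval 260.0 to 715), against 120 and 126 in endothelial-gated cells. Without the cells with fibroblast, smooth muscle or mesothelial markers the stellate-gated levels were 682 and 1012. A UMI of Lrat was found in 14.8% to 26.1% of stellate-gated TLH cells, 7.5% to 14.8% of endothelial-gated cells and 1.9% to 4.6% of hepatocyte-gated cells.

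Of 18 other genes of retinoid handling, 11 were tested. Against endothelial-gated sums 2 were higher and 2 lower in TLH and 2 higher and 1 lower in nuclei, and against hepatocyte-gated sums 2 were higher and 3 lower in TLH and 3 higher and 2 lower in nuclei. Of all genes tested, 4.41% were higher and 5.24% lower than in endothelial-gated sums in TLH, and 4.96% and 4.92% in nuclei. Against hepatocyte-gated sums 11.5% of all genes were higher and 11.6% lower in TLH, and 14.2% and 14% in nuclei. Aldh1a3, a retinaldehyde dehydrogenase that makes retinoic acid, was higher in stellate-gated sums in all 6 comparisons, from log2 3.12 against endothelial-gated TLH cells to 6.58 against hepatocyte-gated nuclei. Cyp26b1, which degrades retinoic acid, was lower than in endothelial-gated sums in TLH (log2 -3.85, SE 0.61) and in nuclei (-4.67, SE 0.65). Rbp4, the carrier that takes retinol into the blood, was lower than in hepatocyte-gated sums (-0.42 in TLH, -0.92 in nuclei). Lpl, lipoprotein lipase, was higher in stellate-gated nuclei in all 3 nuclear comparisons, by log2 5.63 to 6.68.

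Colec10 and Colec11 encode collectins, secreted lectins that bind sugars on microbes and start the lectin pathway of complement together with MASP proteases. Colec11 was at 1682, 1540, 1556 and 1860 CPM in the stellate-gated TLH cells of DA 1, DA 2, LEW 1 and LEW 2 and at 1876, 1772, 1989 and 1462 in nuclei. These were 15.2-fold (TLH) and 48.6-fold (nuclei) above endothelial-gated sums and 33.7-fold and 113-fold above hepatocyte-gated sums. Colec10 was at 514, 426, 494 and 456 in TLH and at 525, 500, 370 and 465 in nuclei, 7.88-fold and 29.7-fold above endothelial-gated sums. In immune-enriched stellate-gated cells Colec11 was at 3332 (DA) and 3833 (LEW) and Colec10 at 1225 and 1024. Without the cells with fibroblast, smooth muscle or mesothelial markers, Colec11 was at 6615 and 8693 and Colec10 at 2432 and 2322. Colec11 was detected in 84.1% to 88.7% of stellate-gated TLH cells and 6.9% to 9.9% of hepatocyte-gated cells, and Colec10 in 54.5% to 61.1% and 3.3% to 4.6%.

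Of 7 other lectin complement genes, 5 were tested. Against hepatocyte-gated sums 0 were higher and 2 lower in TLH, and 1 was higher and 3 lower in nuclei, where 11.6% (TLH) and 14% (nuclei) of all genes tested were lower. Mbl1, a mannose-binding lectin, was lower in stellate-gated than in hepatocyte-gated TLH cells (log2 -0.91) and nuclei (-0.995), as was the protease gene Masp2 (-0.50 and -0.83). Masp1 was higher in stellate-gated nuclei than in hepatocyte-gated (log2 0.89, SE 0.32), endothelial-gated (1.67, SE 0.40) and Kupffer-gated nuclei (1.52, SE 0.42). The ficolin gene Fcna was lower than in Kupffer-gated sums by log2 -5.10 in both TLH and nuclei, the 1 gene of the 5 lower there, where 12% (TLH) and 5.64% (nuclei) of all genes were lower.

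Pth1r, the receptor for parathyroid hormone and its related peptide, stood at 588, 624, 531 and 492 CPM in stellate-gated TLH cells and at 655, 1019, 968 and 748 in nuclei. The difference from hepatocyte-gated nuclei was 191-fold (log2 7.58, SE 0.25) and from hepatocyte-gated TLH cells 36.1-fold (log2 5.17, SE 0.15). Hepatocyte-gated nuclei held 2.9 to 4.2 CPM. Of 7 genes of the PTH receptor axis, 2 were tested in TLH and 1 in nuclei. Gnas, the gene of the stimulatory G protein subunit, was the 1 gene higher than in hepatocyte-gated TLH cells (log2 0.80), where 11.5% of all genes were higher. Arrb2, a beta-arrestin, was the 1 gene lower than in Kupffer-gated TLH cells (log2 -2.26) and nuclei (-4.44). Of all genes tested, 12% (TLH) and 5.64% (nuclei) were lower there. Arrb2 was also lower than in endothelial-gated nuclei (log2 -3.22), where 4.92% of all genes were lower. No gene of the axis was called against endothelial-gated TLH cells.

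Hgf encodes hepatocyte growth factor, the ligand of the receptor MET. Stellate-gated TLH cells held 320.5 (DA 1), 306 (DA 2), 329 (LEW 1) and 401 (LEW 2) CPM, and nuclei 846, 926, 1183 and 855. Endothelial-gated cells were next, at 37.5, 44.1, 30.3 and 43.6 in TLH and at 160, 137, 122 and 118.06 in nuclei. Kupffer-gated sums followed at 10.2 to 26.0 in TLH and 19.2 to 33.4 in nuclei, and hepatocyte-gated sums were lowest at 4.2 to 9.2 and 2.8 to 4.9. The 4 classes did not overlap over rats in any of the 3 preparations, an order that no other gene of the 9 showed in all of them. Hgf was 7.34-fold higher in stellate-gated than in endothelial-gated nuclei (log2 2.87, SE 0.20) and 191-fold higher than in hepatocyte-gated nuclei (log2 7.58, SE 0.24).

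Of 8 other genes of the HGF axis, 4 were tested in nuclei, and all 4 were lower in stellate-gated than in hepatocyte-gated nuclei (14% of all genes tested were lower). These were the receptor gene Met (log2 -1.37, SE 0.31), the HGF-activating protease genes Hpn (-0.97) and Hgfac (-0.86), and the protease inhibitor gene Spint2 (-0.92). In TLH 2 of 4 were lower (11.6% of all genes), Hpn (-0.89) and Hgfac (-0.55).

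Angptl6 encodes a secreted angiopoietin-like protein. It stood at 641, 818, 853 and 912 CPM in stellate-gated TLH cells and at 464, 599, 695 and 613 in nuclei. Both LEW rats were above both DA rats in each, but Angptl6 was not called between strains. Of 1932 genes tested in both, 11.4% kept the strains apart in the same direction in both. Its fold over hepatocyte-gated sums was 44.3 in TLH and 11.2 in nuclei, the lowest of the 9 genes in nuclei.

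Steap4 encodes a metalloreductase of iron and copper. It was at 628, 653, 890.5 and 684 CPM in stellate-gated TLH cells and at 832, 827, 1144 and 909 in nuclei, 32.9-fold and 111-fold above hepatocyte-gated sums. Sod3 encodes extracellular superoxide dismutase. It was at 633, 500, 539 and 529 in TLH and at 266, 222, 253 and 269 in nuclei, 46.3-fold and 74.1-fold above hepatocyte-gated sums. Among 9 related antioxidant and metalloreductase genes, 7 were tested in TLH, and 1 was higher and 3 were lower than in hepatocyte-gated cells, where 11.5% of all genes were higher and 11.6% lower. Gpx3, a secreted glutathione peroxidase, was higher than in hepatocyte-gated TLH cells (log2 3.25), whereas the relatives Steap3 (-1.65), Cat (-0.53) and Gpx1 (-0.33) were lower.

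The 9 genes also occurred together in single cells. A stellate-gated cell held UMIs of a median of 5.5 to 8 of the 9 genes, depending on the library, and 50% to 82.3% of stellate-gated cells held 5 or more. The other gated classes held a median of 0 or 1, and 0 to 9.14% of their cells held 5 or more. Thinned to 1000 UMIs per cell, the mean number of genes seen was 3.90 to 5.01 in stellate-gated cells and at most 0.63 in any other class. Over the 40 sums of class and library, the correlation of log2 levels between pairs of the 9 genes had a median of 0.95 and ran from 0.83 to 0.99 over 36 pairs. These sums share libraries and the large step between classes, so the values are descriptive. The gene outside the 9 and outside the gate whose profile was most like that of Lrat was Actn4 (r = 0.95). For Angptl6 it was Abi3bp (0.97), for Sod3 Prss23 (0.98) and for Hgf Tp53i11 (0.97), and the gate gene Bgn was among the 3 nearest for 6 of the 9.

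Further genes of quiescent stellate cells moved with the 9, and genes of the activation and contraction list did so only in part. Of 13 further genes of quiescent stellate cells, 8 were tested in TLH and 8 of 8 were higher in stellate-gated cells than in each of the other classes, with a median log2 fold change of 2.84 against endothelial-gated cells. Of all genes tested in TLH, 4.41% were higher than in endothelial-gated, 8.61% than in Kupffer-gated and 11.5% than in hepatocyte-gated cells, and in nuclei 4.96%, 7.39% and 14.2%. In nuclei 9 of 9 tested genes of the list were higher in each comparison (median 4.88 against endothelial-gated nuclei), led by the intermediate filament gene Gfap (9.37), Gdf2 (6.09), Hhip (5.83) and Adamtsl2 (5.60). Of the activation and contraction list, 4 of 7 tested were higher than in hepatocyte-gated TLH cells (11.5% of all genes), namely Loxl2 (5.03), Timp1 (4.76), Myl9 (4.26) and Vim (2.84), and 1 was lower (11.6%). In nuclei 3 of 5 were higher (14.2%), namely Col5a1 (8.02), Myl9 (5.67) and Vim (4.11), and Fn1 was lower (log2 -1.21, where 14% of all genes were lower). Against endothelial-gated sums 2 of 7 were higher in TLH (median log2 0.46) and 3 of 5 in nuclei (median 2.92). Against Kupffer-gated TLH cells 3 of 7 were higher and 1 was lower (median 2.27), where 12% of all genes were lower. Against Kupffer-gated nuclei 2 of 5 were higher (median 0.81).

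The low levels outside the stellate gate were read again in cells that held UMIs of at most 1 of the other 8 genes, a setting added after the levels had been seen. For 6 genes, Ecm1, Colec10, Colec11, Pth1r, Steap4 and Sod3, the endothelial-gated, Kupffer-gated and hepatocyte-gated levels were then at most 10.2% of the stellate-gated level of the same library. Hgf, Lrat and Angptl6 exceeded this. The 10.2% limit does not hold for Colec10 over all gated cells. There its endothelial-gated level in TLH was 9.2% to 17.3% of the stellate-gated level, beside 9.2% to 14.4% for Hgf. All endothelial-gated immune-enriched cells held Colec10 at 81.7 (DA) and 107 (LEW) CPM, against 6.8 and 9.3 in Kupffer-gated cells.

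**Figure D2:**
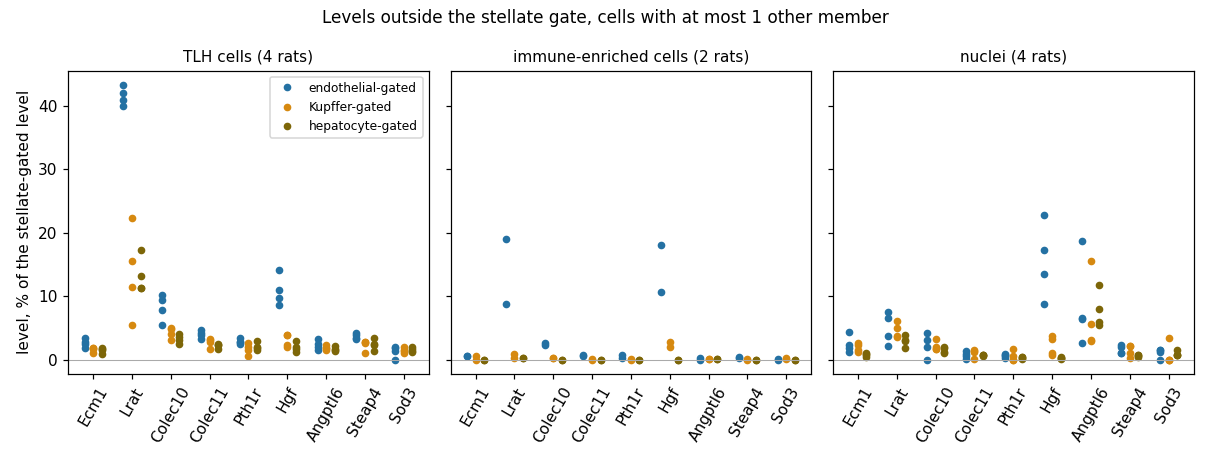
Level of each gene in endothelial-gated, Kupffer-gated and hepatocyte-gated cells with UMIs of at most 1 other gene of the 9, as a percentage of the stellate-gated level of the same library (linear axis); each point is 1 rat. Lrat in endothelial-gated TLH cells (39.9% to 43.3%), Hgf in endothelial-gated nuclei (8.8% to 22.8%) and Angptl6 in nuclei stand above the other genes.

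Endothelial-gated nuclei with at most 1 other gene of the 9 held Hgf at 193 (DA 1), 160 (DA 2), 104.0 (LEW 1) and 115 (LEW 2) CPM, against 8.9 to 35.4 in Kupffer-gated and 1.7 to 4.3 in hepatocyte-gated nuclei. The same cells of the immune-enriched preparation held 86.8 (DA) and 99.7 (LEW), against 15.9 and 16.0 in Kupffer-gated cells. In TLH the endothelial-gated level was 28.5 to 43.2. A UMI of Hgf was found in 21.7% to 30.2% of all endothelial-gated nuclei, in 6.3% to 10.1% of Kupffer-gated nuclei and in 0.5% to 1.2% of hepatocyte-gated nuclei, with median depths of 1298.5 to 1574, 1273 to 2996 and 1481 to 2036 UMIs. In the test of all endothelial-gated against Kupffer-gated nuclei, which was added after the levels had been seen, 1 of the 9 genes was called higher, against a background of 7.12%, and it was Hgf, 4.88-fold (log2 2.29, SE 0.29, adjusted p = 1.9e-08 by edgeR's quasi-likelihood test). With a stricter filter on nuclei the log2 fold change was 1.92 and the call was lost (adjusted p = 0.070, edgeR). In TLH 3 of the 9 were called higher in endothelial-gated than in Kupffer-gated cells, against a background of 12%: Lrat (log2 1.29, SE 0.18), Hgf (1.07, SE 0.19) and Colec10 (0.88, SE 0.15). The stellate list used for the gate moved the same way in every library. Its 21 genes summed to 221 to 434 CPM in endothelial-gated and 129.9 to 263 in Kupffer-gated TLH cells, with 0 to 3 of them at 0. In nuclei the sums were 259 to 380.0 (5 or 6 genes at 0) and 101.5 to 223 (11 to 13 at 0), and in the immune-enriched preparation 264 and 292 against 10.7 and 27.9 (4 genes at 0 in each endothelial-gated sum, 6 and 15 in the Kupffer-gated sums). That list includes Rspo3, which the study names among zonated endothelial genes, and the gate limits how many of its genes either class can hold. The counts of genes at 0 come from sums of unlike size. In nuclei these held 328985 to 482819 UMIs (endothelial-gated) and 156772 to 364384 (Kupffer-gated). The part of stellate RNA in these differences was not tested.

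Endothelial-gated TLH cells with at most 1 other gene of the 9 held Lrat at 38.9, 56.5, 28.2 and 40.01 CPM, or 39.9% to 43.3% of the stellate-gated level. In the immune-enriched preparation this was 67.3 (DA) and 39.0 (LEW), against 353 and 446 in stellate-gated cells and 1.0 and 4.3 in Kupffer-gated cells. The stellate-gated levels were 682 and 1012 without the cells with fibroblast, smooth muscle or mesothelial markers. In endothelial-gated nuclei Lrat was at 4.0 to 24.8, or 2.3% to 7.5%, with Kupffer-gated nuclei at 6.7 to 23.0. All endothelial-gated and Kupffer-gated nuclei differed in Lrat by a log2 fold change of -0.13 (SE 0.43, adjusted p = 0.95, edgeR's quasi-likelihood test). Over all gated TLH cells, Lrat was at 43.5% to 55.0% of the stellate-gated level in endothelial-gated cells. It was at 7.5% to 29.3% in Kupffer-gated and 10.9% to 18.7% in hepatocyte-gated TLH cells. The preparations were not tested against each other.

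Angptl6 was found outside the stellate gate in nuclei. Hepatocyte-gated nuclei held 37.3, 35.5, 37.995 and 72.4 CPM, or 5.5% to 11.8% of the stellate-gated level. The corresponding range for the other 8 genes in hepatocyte-gated nuclei was 0.2% to 3.9%. LEW 1 Kupffer-gated nuclei held 108 and LEW 2 endothelial-gated nuclei 115 CPM, each value from 1 rat. Over all endothelial-gated nuclei the rats ran from 28.1 to 124 CPM, or 6.1% to 20.3% of the stellate-gated level. Over all Kupffer-gated nuclei they ran from 23.8 to 115 CPM, or 4.0% to 16.6%. In hepatocyte-gated cells of the immune-enriched preparation the level was 2.1 (DA) and 2.0 (LEW).

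Stellate-gated cells that also held fibroblast, smooth muscle or mesothelial markers had lower levels of the 9 genes. Cells with UMIs of 2 or more genes of a fibroblast, smooth muscle and mesothelial list (such as Dpt, Clec3b, Pi16, Myh11 and Msln) made up 0.99% to 7.41% of stellate-gated TLH cells, 8.0% to 10.7% of the nuclei, and 8 of 19 (DA) and 3 of 8 (LEW) immune-enriched cells. In the immune-enriched preparation these 11 cells held 74776 UMIs, with 0 UMIs of Colec10, Colec11, Pth1r, Angptl6 and Hgf. They held 1 UMI of Lrat, 3 of Sod3, 12 of Ecm1 and 22 of Steap4. The 16 other stellate-gated cells held 71062 UMIs, with 505 UMIs of Colec11, 629 of Ecm1, 228 of Angptl6, 171 of Colec10, 154 of Pth1r and 108 of Hgf. Colec11 was seen in 16 of these 16 cells and in 0 of the 11. For the 11 cells, stellate-gated names only the gate they passed, and whether they are stellate cells was not tested. Percentages of the stellate-gated level given above include such cells.

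In TLH 25 stellate-gated cells and in nuclei 23 held 2 or more genes of that list, and each of the 9 genes was lower in them than in the other 544 cells and 222 nuclei. Colec10 was at 49.1 against 482 CPM in TLH and 37.0 against 530 in nuclei. Ecm1 was at 1472 against 3609 and at 160 against 1323. Lrat was at 65.4 against 113 CPM in TLH, from 4 UMIs in the first group. The cells of a group were pooled over rats, so no test was made of this split.

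**Figure D3:**
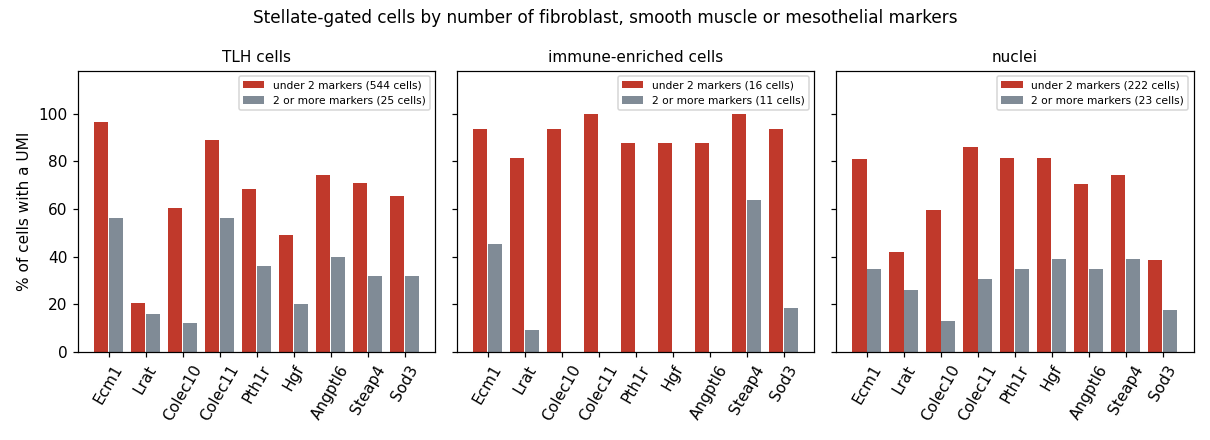
Percentage of stellate-gated cells with a UMI of each gene, split by whether the cell held 2 or more or under 2 genes of the fibroblast, smooth muscle and mesothelial list, with the number of cells in each key. In immune-enriched cells the bars of Colec10, Colec11, Pth1r, Angptl6 and Hgf are at 0 in the 11 cells with 2 or more such genes, and in all 3 preparations every gene is seen in a larger share of the other cells.

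No strain difference of the 9 genes passed the test in stellate-gated cells. Of the 9, 0 were called between LEW and DA in TLH, where edgeR's quasi-likelihood test called 1.42% of 2878 genes, and 0 in nuclei, where it called 0.83% of 2890. DESeq2 also called 0 of the 9 in each. In edgeR 0 of the 9 had an unadjusted p under 0.05, where 321 of 2878 genes did in TLH and 229 of 2890 in nuclei. The log2 fold changes (LEW over DA) ran from -0.46 (Lrat, SE 0.38) to 0.31 (Steap4) in TLH, with a median of 0.04, and from -0.35 (Colec10, SE 0.36) to 0.25 (Angptl6) in nuclei, with a median of -0.01. The medians over all genes tested were 0.00 and -0.01. Standard errors were 0.18 to 0.38 in TLH and 0.36 to 0.43 in nuclei, with 2 rats a strain. Small differences were thus not detectable, and larger ones could also go uncalled. Lrat in hepatocyte-gated TLH cells, at log2 -0.96 with an SE of 0.23, was not called either. The 2 strains did not overlap for 4 of the 9 genes in TLH, where they did not overlap for 41.4% of all genes tested, and for 3 of the 9 in nuclei, where they did not for 34.6%, so the 9 genes were near the background. Angptl6 and Steap4 were higher in both LEW rats than in both DA rats in TLH and again in nuclei, by log2 0.28 and 0.31 in TLH and 0.25 and 0.25 in nuclei. Of 1932 genes tested in both, 11.4% kept the strains apart in the same direction in both. Pth1r (DA higher, log2 -0.23), Hgf (LEW higher, 0.23) and Colec10 (DA higher, -0.35) kept them apart in 1 preparation. Stellate-gated TLH cells numbered 203 and 268 in DA against 54 and 44 in LEW, and 45 and 268 against 50 and 44 when all 4 libraries had 1 cell filter, where the strains overlapped.

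**Figure D4:**
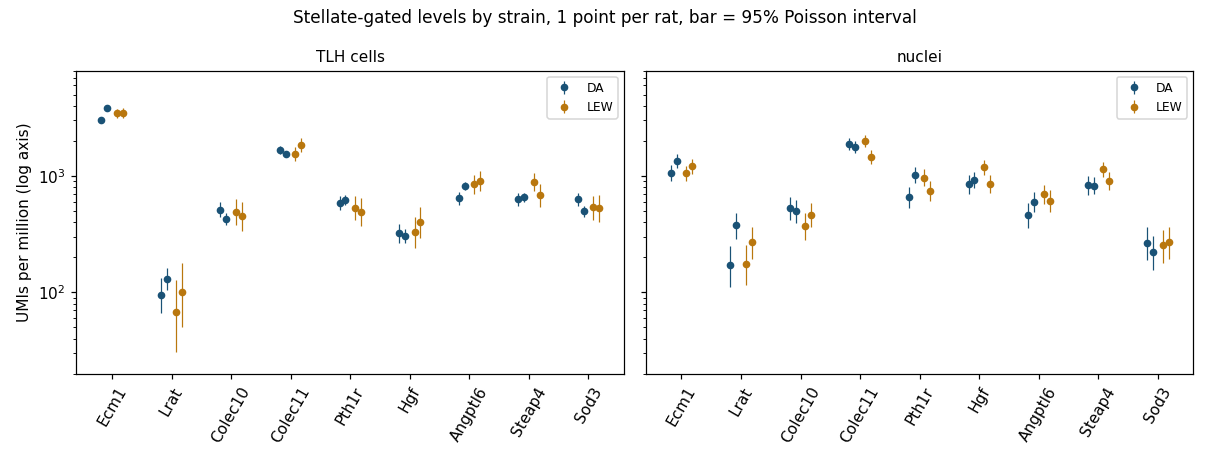
Level of each gene in stellate-gated cells (CPM, log axis) in DA and LEW rats, in TLH and in nuclei; each point is 1 rat with its 95% Poisson interval, which covers counting error only. No gene was called between the strains, and the LEW points of Angptl6 and Steap4 lie above the DA points in both panels.

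In hepatocyte-gated sums 0 of the 9 were called between strains in TLH (background 3.66%) and 0 in nuclei (background 1.8%). In TLH 1 of the 9 had an unadjusted p under 0.05 in edgeR, as did 1848 of all 9416 genes tested. This was Lrat, at 17.9 and 18.1 CPM in DA and 7.5 and 10.9 in LEW. Its log2 fold change was -0.96 (SE 0.23, adjusted p = 0.059 by edgeR's quasi-likelihood test). In nuclei 0 of the 9 had an unadjusted p under 0.05 in edgeR, where 966 of all 10231 genes tested did. The strains did not overlap for 2 of the 9 genes in hepatocyte-gated TLH cells, against 51.9% of all genes tested, and for 5 of the 9 in hepatocyte-gated nuclei, against 35.3%. In hepatocyte-gated nuclei LEW was above DA for all 5 (Ecm1, Colec10, Pth1r, Steap4 and Sod3), and the log2 fold changes of the 9 ran from 0.04 to 0.92 with a median of 0.43, against 0.02 over all genes tested. None of the 9 was called, and Colec10 was -0.33 with a stricter gate. LEW 2 was unlike the other rats here. Its hepatocyte-gated nuclei had a median hepatocyte-list share of 6.1%, against 12.8% to 17.6% in the others. In LEW 2, 74.5% of them held 0 of the 9 genes, against 84.8% to 86.4%. The part of this in the strain values was not tested. The share of all genes on the LEW side in hepatocyte-gated nuclei was not counted. The 21 genes of the stellate gate list summed there to 52.0 and 50.8 CPM in DA and 52.2 and 52.6 in LEW. The gate allows at most 1 gene of that list per nucleus, so this sum cannot measure stellate RNA in them. The strains were apart in opposite directions in stellate-gated and hepatocyte-gated sums for 1 of the 9 in TLH (Hgf), against 3.78% of all genes, and for 1 of the 9 in nuclei (Colec10), against 2.55%. No fit between strains was made in Kupffer-gated or endothelial-gated sums. In Kupffer-gated TLH cells both DA rats were above both LEW rats for 8 of the 9 genes, all but Hgf, against 24.1% of 7436 genes, with Sod3 at 32.3 and 28.5 CPM in DA and 10.8 and 15.7 in LEW. LEW was above DA for 0 of the 9 there, against 27.4%. The stellate gate list moved the same way in these cells, with 260.0 and 263 CPM in DA against 129.9 and 232 in LEW and 0 to 2 of its 21 genes at 0, and its part in the difference was not tested. Fewer of the 9 kept the strains apart in the other 3 sets of sums. In Kupffer-gated nuclei DA was above LEW for 4 of the 9 (Colec10, Colec11, Lrat and Sod3), against 26.3% of 4713 genes, and LEW above DA for 0, against 18%. The stellate gate list was there at 223 and 138 CPM in DA and 101.5 and 121 in LEW, again with DA above LEW. In endothelial-gated TLH cells DA was above LEW for Lrat and Sod3 (20.1% of 6930 genes) and LEW above DA for Colec10 (29.6%). In endothelial-gated nuclei DA was above LEW for Lrat and Hgf (16.7% of 5821 genes) and LEW above DA for Colec11 and Angptl6 (18.7%). In endothelial-gated sums the strains overlapped in the stellate gate list in both preparations. Of the other lists, Tagln, a gene of smooth muscle contraction, was lower in LEW stellate-gated nuclei (log2 -3.95, SE 0.79, adjusted p = 0.027 by edgeR). It was 1 of 6 activation and contraction genes tested there, and the 1 call among all listed genes in stellate-gated sums by strain. Of all genes, 0.83% of 2890 were called in nuclei and 1.42% of 2878 in TLH. This call was not examined under the alternative gates and filters.

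On the sections all 9 genes were read in spots, each a small area with several cells, so fewer stellate cells and less RNA per cell cannot be told apart. Section A kept 2429 spots and section B 2376, with medians of 13796 and 14344 UMIs. Ecm1 was found in 87.9% of the spots of section A. Spots were ordered by the balance of 8 pericentral hepatocyte genes (such as Glul and Cyp2e1) against 10 periportal ones (such as Hal and Sds) and divided into 3 equal groups of 792 to 810 spots. No spot position was used, and spots are not replicates, so the intervals below cover counting error only.

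All 9 genes had a higher CPM in the pericentral than in the periportal group in both sections. This direction depends on the scaling to all UMIs of a group. Unscaled UMIs of Colec11 were lower in the pericentral group, at 1182 against 1222 on A and 1134 against 1274 on B. Those of Hgf were 244 against 245 and 277 against 313. On B alone, Colec10 (559 against 589) and Angptl6 (414 against 456) were lower too. The other genes were higher in unscaled UMIs in both sections. Among 7623 genes with at least 100 UMIs, 35.0% were higher in the pericentral group in both sections and 30.5% in the periportal group. The 7623 include the 9 genes and leave out the genes that ordered the spots. Ecm1 had the largest ratio, 1.62 (95% interval 1.53 to 1.71) on A and 1.74 (1.65 to 1.83) on B. It fell across the groups from 271 to 202 to 168 CPM on A and from 321 to 223 to 185 on B. Pth1r was at 1.43 (1.25 to 1.64) and 1.31 (1.14 to 1.49), and Steap4 at 1.29 (1.15 to 1.45) and 1.29 (1.16 to 1.45). Colec10 stood at 1.16 (1.02 to 1.32) and 1.15 (1.02 to 1.29).

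The other 5 genes had smaller or less even ratios. Lrat was at 1.17 (0.98 to 1.39) on A and 1.34 (1.12 to 1.61) on B, and Sod3 at 1.09 (0.94 to 1.27) and 1.31 (1.14 to 1.52). Angptl6, Colec11 and Hgf had intervals that included 1 in both sections, with Hgf at 1.08 (0.90 to 1.29) and 1.07 (0.91 to 1.26). The summed stellate gate list was also higher in the pericentral group, at 394, 330 and 322 CPM from the pericentral to the periportal group on A and at 433, 366 and 355 on B. The fibroblast, smooth muscle and mesothelial list was at 686, 742 and 701 on A and 724, 731 and 713 on B. Median UMIs per spot ran the other way, from 13196.5 in the pericentral to 14513 in the periportal group of A and from 13223 to 15955.5 on B. The part of these lists and of depth in the ratios was not tested.

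**Figure D5:**
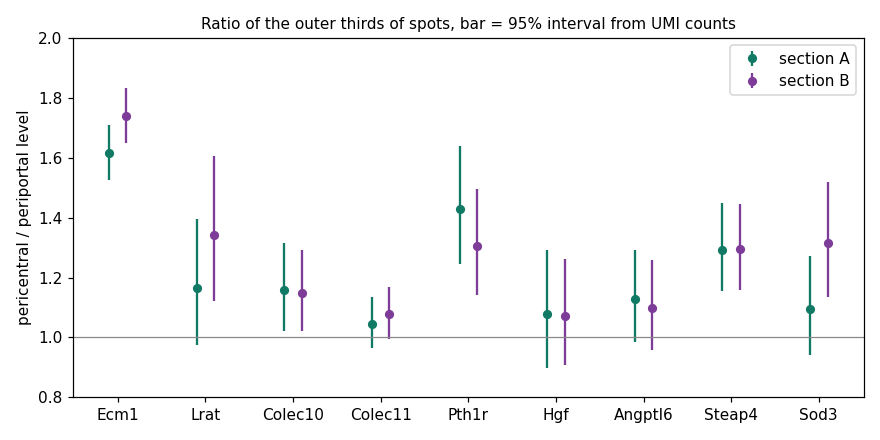
Ratio of the pericentral to the periportal level of each gene (groups of spots, CPM) in sections A and B; bars are 95% intervals from UMI counts and the line marks 1. All 18 points lie above 1, Ecm1 is highest at 1.62 and 1.74, and the intervals of Colec11, Hgf and Angptl6 reach 1 in both sections.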

How the data were processed

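Per the labels, cells were captured with 10x 3' v2 (TLH) or v3 (immune-enriched, nuclei) and sections with 10x spatial 3' chemistry, and the authors aligned reads with Cell Ranger 3.1.0 and Space Ranger 1.1.0. All deposited values are raw UMI counts per gene and barcode. TLH and immune-enriched matrices carry no gene names here, so names were taken by row from the nuclei list, which has the same 32883 rows. No names file of those libraries was used to check the order, but their gene totals had a rank correlation of 0.911 to 0.928 with the nuclei totals in the same row, against 0.287 to 0.295 with rows moved by 1. Minimum UMIs were 1500 or 2000 (TLH) and 1000 (immune-enriched, nuclei, spots). Mitochondrial limits were 20% to 40% for TLH, 50% for immune-enriched cells and 10% for nuclei. The TLH limits differed between strains: 1500 UMIs and 30% for DA 1, 2000 and 20% for DA 2, and 2000 and 40% for LEW 1 and LEW 2. In the stellate list, 1 gene was left out of the gate after its hepatocyte levels had been seen; it and the angiopoietin-like list are not reported here. Counts were summed per rat and class and tested with edgeR 4.0.16 (TMM, filterByExpr, quasi-likelihood, Benjamini-Hochberg at 0.05) in R 4.3.3, and genes used in a gate were left out of comparisons between classes. Classes of a rat come from 1 animal and deviated together (r = 0.11 to 0.36 in TLH, 0.15 to 0.35 in nuclei), so the rat was a block. DESeq2 1.42.0 was an alternative. Levels are counts scaled to the class sum (CPM). Intervals are exact Poisson or binomial intervals and cover counting error only. The scripts were tested on simulated data. The 9 genes and all lists were chosen with earlier results of these data known; from each list the count called in the comparisons described and some of the (at most 4) called genes with the largest differences are named, plus for each of the 9 genes the 3 most alike of 12568 genes. Rat numbers are those of the labels.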

Additional observations from a re-analysis of the deposited data

Results flagged for a closer look

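In 2 cases the strain difference of a gene went in opposite directions in the stellate-gated and hepatocyte-gated sums, with every rat apart; the difference between the classes was not tested. This held for 2.55% of 2782 genes in nuclei and 3.78% of 2857 genes in TLH. Colec10 in nuclei had a log2 fold change (LEW over DA) of -0.35 (SE 0.36) in stellate-gated sums, with DA at 525 and 500 and LEW at 370 and 465 CPM, and of 0.35 (SE 0.39) in hepatocyte-gated sums, at 7.3 and 6.4 in DA and 7.7 and 9.9 in LEW. Hgf in TLH had a log2 fold change of 0.23 (SE 0.26) in stellate-gated sums, with DA at 320.5 and 306 and LEW at 329 and 401, and of -0.58 (SE 0.32) in hepatocyte-gated sums, at 7.7 and 9.2 in DA and 4.2 and 7.4 in LEW. The directions depend on the gate: Colec10 in hepatocyte-gated nuclei was -0.33 with a stricter gate, and Hgf in stellate-gated TLH cells was -0.010 with the full stellate list and -0.041 with the other 8 genes in the gate. None of the 4 values passed the adjusted threshold in edgeR's quasi-likelihood test.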

How the results depend on the processing

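All 9 genes stayed higher in stellate-gated sums under every alternative run for the 6 comparisons between classes, with 2 exceptions: Lrat in TLH against endothelial-gated cells lost its call without DA 2 (log2 0.87 to 0.92 over the fits that left out 1 rat) and without the rat as replicate block (8 of 9 called), and Lrat was not tested in nuclei under 1 cell filter for all libraries (8 of 8 called). Under that filter Lrat was also not highest in stellate-gated immune-enriched cells (8 of 9 genes). All 9 genes kept a higher CPM in the pericentral spots under each alternative on the sections, all of which scale to total UMIs. The full stellate list, fibroblast-marker, mixed-cell and endothelial against Kupffer settings were chosen after seeing the data. The cause of the changes below was not tested.

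Counts of all genes called moved as follows. Without the replicate block, endothelial against Kupffer in TLH gave 595 genes (967 with it). With 1 cell filter for all libraries, nuclei gave 80 genes higher than in endothelial-gated (305), 125 than in Kupffer-gated (455), 180 than in hepatocyte-gated nuclei (871), and 120 for endothelial against Kupffer (438), with 0 of 8 of the genes described here. With no filter on low counts, nuclei gave 1424 against hepatocyte-gated and 677 for endothelial against Kupffer. Gating with the other 8 genes added gave 5 of 9 for endothelial against Kupffer in TLH (3). By strain, stellate-gated TLH cells (41) gave 12 with DESeq2, 77 with no filter, 12 with a stricter gate, 12 without fibroblast-marker cells, and 7 to 68 leaving out 1 rat. Hepatocyte-gated TLH cells (345) gave 952 with no filter, 193 with a stricter gate, 137 with the replicate block and 94 to 377 leaving out 1 rat; 1 of the 9 genes, Lrat, was called with no filter and 1, Lrat, with 1 cell filter. Stellate-gated nuclei (24) gave 11 with DESeq2, 57 with no filter, 4 with 1 cell filter, 8 with a stricter gate and 24 to 68 leaving out 1 rat. Hepatocyte-gated nuclei (184) gave 122 with DESeq2 size factors, 439 with no filter, 73 with 1 cell filter, 467 with the replicate block and 83 to 234 leaving out 1 rat. Rats of the same number in the 2 strains share only a number (r = -0.04 in TLH and in nuclei); with that block stellate-gated sums gave 53 genes in TLH and 34 in nuclei.

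Log2 fold changes that had not been called changed sign as follows. In stellate-gated TLH cells by strain, no filter gave Ecm1 -0.17, Colec10 -0.16 and Colec11 -0.10, and Sod3 was 0.15 with 1 cell filter and 0.13 with a stricter gate. With the full stellate list in the gate, Ecm1 was -0.20, Colec10 -0.25, Colec11 -0.14 and Hgf -0.010. With the other 8 genes in the gate, Ecm1 was -0.22, Colec10 -0.27, Colec11 -0.19, Steap4 -0.064 and Hgf -0.041. In stellate-gated nuclei by strain, 1 cell filter gave Ecm1 0.13, Pth1r 0.18, Sod3 -0.63 and Hgf -0.026, a stricter gate gave Ecm1 0.0053 and Pth1r 0.12, and the replicate block gave Pth1r 0.0039. Sod3 was -0.047 with the full stellate list, -0.050 without fibroblast-marker cells and -0.22 with the other 8 genes in the gate, where Hgf was -0.027. In hepatocyte-gated nuclei a stricter gate gave Colec10 -0.33. Leaving out 1 rat gave, in stellate-gated TLH cells, Ecm1 -0.17 to 0.23, Colec10 -0.093 to 0.12, Colec11 -0.060 to 0.17 and Sod3 -0.23 to 0.057. In stellate-gated nuclei it gave Ecm1 -0.30 to 0.030, Colec11 -0.32 to 0.0037, Pth1r -0.23 to 0.27, Lrat -0.73 to 0.27, Sod3 -0.14 to 0.25 and Hgf -0.042 to 0.30. For endothelial against Kupffer it gave Angptl6 -0.13 to 0.35 in TLH, and Colec10 -0.88 to 0.62, Lrat -0.25 to 0.10 and Angptl6 -0.24 to 0.83 in nuclei.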
